A study of Mus musculus with 25 samples.

Results

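The 10 genes described here encode the enzymes that carry glucose 6-phosphate to pyruvate in most mouse tissues: Gpi1, Pfkl, Pfkm, Aldoa, Tpi1, Gapdh, Pgk1, Pgam1, Eno1 and Pkm. They were taken by gene symbol from the 4 deposited expression tables of mouse pancreatic islets, and all 10 were listed in every table, out of 17894 genes in all. Each islet RNA sample came from a pool of at least 3 mice, so the libraries of a group are separate pools as far as the labels say, and p-values measure the spread between those pools only. Values were available for 19 libraries in 8 groups. The first table held islets of flox/flox mice (2 libraries) and of BcBKO mice (2 libraries), both on a high-fat diet (HFD) for 3 months, where BcBKO is a beta-cell-specific ablation driven by Pdx1-cre, a driver that is also active in pancreatic progenitors. The second held 5 libraries of wild-type (WT) islets. The third held 2 libraries each of CTR_PBS, KO_PBS and KO_REG3B-Fc: control mice and knockout mice given phosphate-buffered saline (PBS), and knockout mice given REG3B-Fc, by its name an Fc fusion of the secreted lectin REG3B, where the labels do not name the deleted gene of the KO mice. The fourth held 2 libraries each of db_GFP and db_REG3B, islets labelled db that received green fluorescent protein or REG3B by a route the labels do not state. The labels give neither age nor sex. The 2 chow-fed groups were not analysed here.

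Glycolysis splits glucose into pyruvate in the cytosol and yields ATP and NADH on the way. In beta cells glucose enters through a facilitative transporter, is phosphorylated, and nearly all of the pyruvate is passed to mitochondria, so that glycolytic flux is read as ATP and sets insulin secretion. Lactate dehydrogenase A and the high-affinity hexokinases are normally held low in beta cells, and several glycolytic genes are textbook targets of the hypoxia-inducible factor HIF-1, which binds the core motif ACGTG or GCGTG.

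The 250 bases before a RefSeq start (GRCm38.p6) are shown for 4 genes. Tpi1, Pfkl and Pgk1 had the largest increases in the db comparison below. Gapdh had the smallest increase among the members with a single promoter window. Its window lies inside the gene span given below, which reaches further upstream, to 125166467. Each window is written in the direction of transcription. Capitals mark ACGTG or GCGTG on either strand, so that CACGT and CACGC are the same motifs read on the other strand.

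Pgk1, chrX:106186850-106187099, plus strand: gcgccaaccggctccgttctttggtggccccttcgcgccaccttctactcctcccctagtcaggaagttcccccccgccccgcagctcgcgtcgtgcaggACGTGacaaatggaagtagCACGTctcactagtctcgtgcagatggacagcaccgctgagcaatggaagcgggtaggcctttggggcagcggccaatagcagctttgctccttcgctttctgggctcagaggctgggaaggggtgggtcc

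Pfkl, chr10:78009808-78010057, minus strand: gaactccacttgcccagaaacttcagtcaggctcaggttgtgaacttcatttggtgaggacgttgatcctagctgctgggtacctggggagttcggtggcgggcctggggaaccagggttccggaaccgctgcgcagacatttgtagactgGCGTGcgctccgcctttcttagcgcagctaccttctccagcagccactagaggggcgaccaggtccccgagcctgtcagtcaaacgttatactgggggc

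Tpi1, chr6:124814159-124814408, minus strand: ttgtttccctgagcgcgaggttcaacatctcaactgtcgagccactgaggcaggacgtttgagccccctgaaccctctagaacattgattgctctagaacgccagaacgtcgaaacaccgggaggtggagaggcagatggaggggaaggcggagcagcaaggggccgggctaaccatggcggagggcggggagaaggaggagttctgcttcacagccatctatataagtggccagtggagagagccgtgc

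Gapdh, chr6:125165774-125166023, minus strand: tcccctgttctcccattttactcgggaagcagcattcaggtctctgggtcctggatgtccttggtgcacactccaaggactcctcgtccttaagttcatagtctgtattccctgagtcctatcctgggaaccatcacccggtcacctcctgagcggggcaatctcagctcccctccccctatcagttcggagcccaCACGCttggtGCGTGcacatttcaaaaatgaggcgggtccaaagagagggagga

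Pgk1 held ACGTG on both strands, with first bases at positions -150 and -131 from the start. Pfkl held GCGTG at position -99, Gapdh held GCGTG at positions -54 and -44, and Tpi1 held neither. In the first RefSeq window of each gene, 6 of the 10 members held one of these motifs, against 38.6% of 27025 mouse promoters. Counted over all listed windows of each gene, it was 13 of 18 member windows (72.2%) against 38.6% of 32851 windows. The other motifs searched on both strands were CACGTG (1 member, Pfkm, where it overlaps ACGTG, against 6.05% of promoters), CCAAT (2 members against 34.5%), GGGCGG (4 members against 32.9%) and TATAAA (0 members against 13.0%). GC content of the member windows had a median of 57.0%, against 52.0% over all promoters. A match describes the letters in these windows and is not a measured binding site.

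The genes lie at separate places in GRCm38.p6. Gpi1 spans chr7:34201327-34230336, Aldoa chr7:126795234-126800994, Tpi1 chr6:124810586-124814158 and Gapdh chr6:125161852-125166467. Pfkl spans chr10:77986947-78009807, Pfkm chr15:98092589-98132447, Pgam1 chr19:41911871-41918665, Eno1 chr4:150236708-150248879, Pkm chr9:59656576-59679372 and Pgk1 chrX:106187100-106203699. Gapdh had 74 other GENCODE genes whose transcripts matched at least 95% over at least 50% of its coding sequence, 69 of them annotated pseudogenes. None of these 74 was listed in the tables, and how reads shared with them were assigned is not given in the sources used here. Eno1 had 3 such copies, of which Eno1b was listed at 1.69 FPKM or less, Pgk1 had 2, and Gpi1, Pgam1 and Pkm had 1 each. Pkm has 9 annotated coding transcripts, among them the M1 and M2 forms of pyruvate kinase, which a value per gene does not separate.

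Within a library the members differed widely in level. FPKM (fragments per kilobase, corrected for library depth) is per length, so genes can be set side by side. Gapdh, glyceraldehyde 3-phosphate dehydrogenase, stood at 308 ± 77.5 FPKM (SD, n = 5) in WT islets, followed by aldolase A (Aldoa, 209 ± 44.0) and muscle-type pyruvate kinase (Pkm, 177 ± 35.5). A middle group ran from 56.9 ± 10.5 FPKM for phosphoglycerate mutase (Pgam1) through enolase (Eno1, 55.8 ± 10.5), triosephosphate isomerase (Tpi1, 48.4 ± 10.8) and phosphoglycerate kinase (Pgk1, 43.6 ± 10.8) to 39.1 ± 8.63 for glucose 6-phosphate isomerase (Gpi1). The phosphofructokinases, which catalyse the committed step, were lowest: 14.4 ± 3.00 FPKM for Pfkm and 8.40 ± 1.21 for Pfkl.

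Gapdh exceeded Aldoa, Aldoa exceeded Pkm and Pkm exceeded Pgam1 in 19 of 19 libraries. In the middle group the order was loose: Pgam1 exceeded Eno1 in 3 of 5 WT libraries and 12 of 19 libraries in all. Pfkm exceeded Pfkl in 15 of 19 libraries, and the order was reversed in the 4 db libraries. The 10 members summed to between 746 and 1207 FPKM in WT, with the lowest sums in WT replicates 2 and 3, the libraries in which acinar markers took 37.2% and 39.1% of summed FPKM against 4.68% to 28.6% in the other three.

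**Figure D1:**
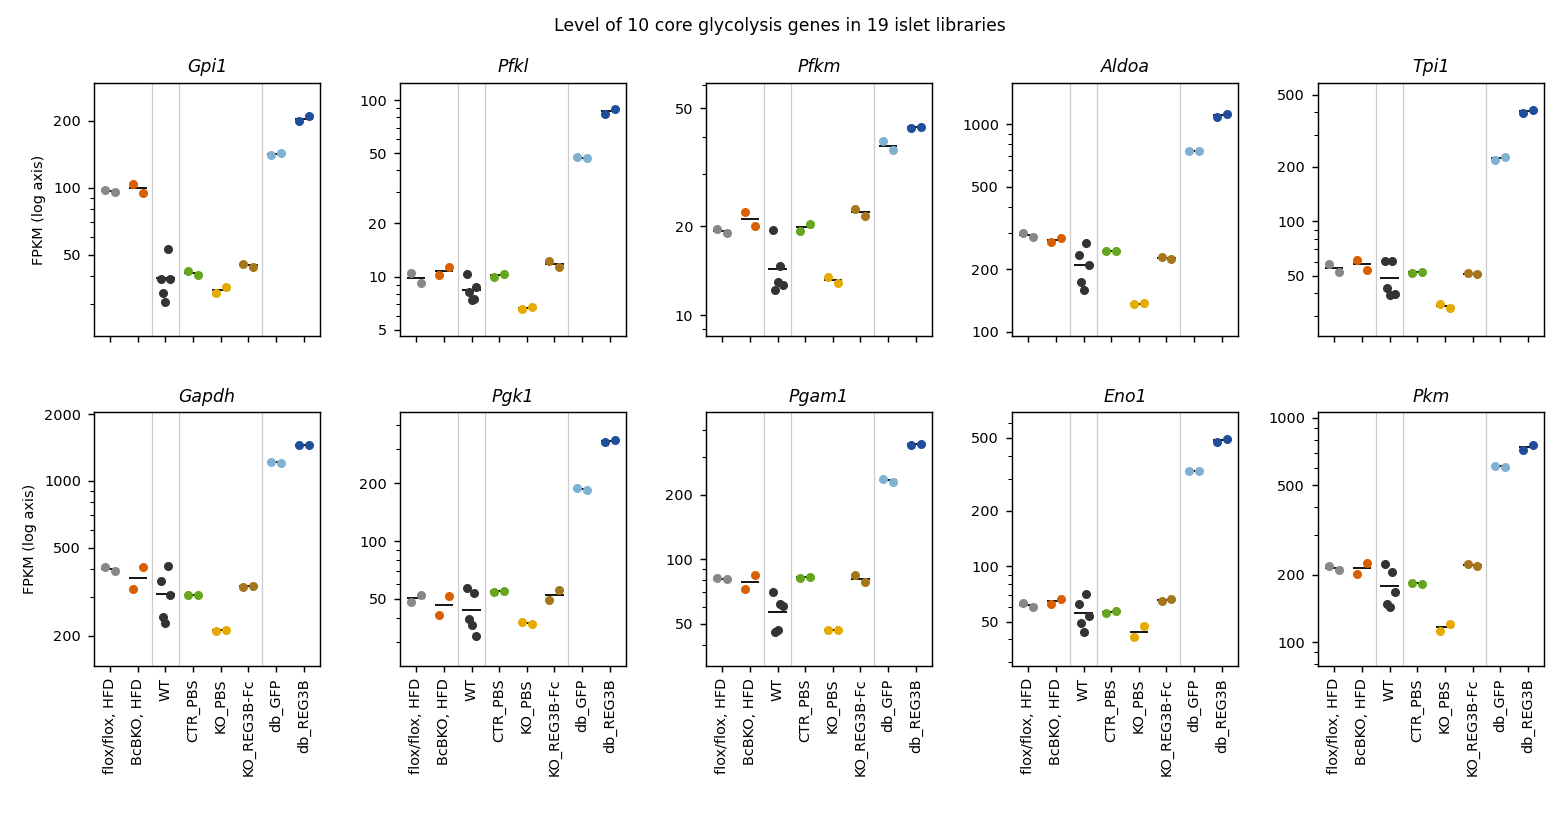
FPKM of each of the 10 genes (log axis) in 19 islet libraries, grouped by label, with a bar at the group mean and grey lines between the separately made tables. The 2 db_REG3B points lie above the 2 db_GFP points for every gene, and the KO_PBS points lie below those of CTR_PBS and KO_REG3B-Fc.

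Beta-cell markers fitted the islet label in every group, with Ins1 and Ins2 together taking 27.0% to 67.8% of summed FPKM. Acinar transcripts took 0.0409% to 39.1%. Because these transcripts fill such differing shares, every comparison below used FPKM rescaled in each library by its median ratio to the average library of the table, then limma on log2(value + 1), which understates the change of low genes. A gene was called at a Benjamini-Hochberg adjusted p below 0.05 over all genes tested. The shares of all genes called, given with the members of each comparison, are also the background for its pathway and marker counts. Results on FPKM as deposited are given beside the main ones where the members' counts or signs differ. Smarcd3, the gene of BAF60C that the series title names, was at 3.11 and 2.40 FPKM in the libraries labelled BcBKO against 2.57 and 2.55 in flox/flox. In those labelled KO_PBS it was at 0.75 and 1.09 FPKM, and CTR_PBS was at 1.03 and 1.15. A whole-gene value does not test a deletion of part of the gene, so these values neither check nor contradict the BcBKO and KO labels, which are used below as given. In bulk islets, fewer cells of a type and less RNA per cell cannot be told apart.

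All 10 glycolysis genes rose in islets labelled db_REG3B against db_GFP. The median change of the 10 was 0.63 on the log2 scale, against 0.01 over the 12507 genes tested. The increases ran from 1.21-fold for Pfkm to 1.91-fold for Tpi1, and the 2 groups overlapped for none of the 10. Over all genes tested, 20.7% were called higher and 25.6% lower, and the groups did not overlap for 36.8% of genes in the upward and 37.1% in the downward direction. As deposited, the 10 were also all called higher (median 0.55), against 12.2% of genes higher and 30.8% lower. The 10 changes ranked between the 89.4th and the 99.5th percentile of all genes by signed change. The authors' deposited table also called 10 of 10 higher, against 12.3% of its genes higher and 15.1% lower.

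The upper part of the pathway uses ATP and splits the sugar. Gpi1, which converts glucose 6-phosphate to fructose 6-phosphate, was at 140 and 143 FPKM in db_GFP and at 199 and 211 in db_REG3B, a log2 change of 0.60 ± 0.04 (SE; limma adjusted p = 9.35e-06). Pfkl, the liver-type phosphofructokinase, went from 47.4 and 47.1 to 83.5 and 89.2 FPKM, a log2 change of 0.93 ± 0.04 (adjusted p = 1.67e-06). Pfkm, the muscle-type enzyme for the same step, was at 38.7 and 36.0 against 42.7 and 43.3 FPKM, a change of 0.27 ± 0.05 (adjusted p = 0.00265). The 95% intervals of Pfkl (0.83 to 1.02) and Pfkm (0.16 to 0.38) did not overlap, and the ratio of Pfkl to Pfkm was 1.22 and 1.31 in db_GFP against 1.96 and 2.06 in db_REG3B. Aldoa, which cleaves fructose 1,6-bisphosphate, went from 741 and 743 to 1080 and 1126 FPKM (log2 change 0.64 ± 0.03, adjusted p = 3.62e-06). Tpi1, which interconverts the triose phosphates, went from 218 and 226 to 394 and 412 FPKM (0.93 ± 0.04, adjusted p = 9.88e-07).

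The later steps yield NADH, ATP and pyruvate. Gapdh went from 1216 and 1210 to 1455 and 1455 FPKM, a log2 change of 0.34 ± 0.03 (limma adjusted p = 0.000144), so a gene often used as a reference for scaling was itself higher. Pgk1, the first ATP-yielding enzyme, went from 188 and 185 to 327 and 333 FPKM (0.89 ± 0.03, adjusted p = 8.36e-07). Pgam1, the mutase, went from 236 and 230 to 341 and 345 FPKM (0.63 ± 0.03, adjusted p = 5.25e-06). Eno1, the enolase, followed at 329 and 332 against 477 and 492 FPKM (0.62 ± 0.03, adjusted p = 4.36e-06). Pkm, the last enzyme, was at 613 and 605 against 722 and 756 FPKM (0.35 ± 0.03, adjusted p = 8.97e-05).

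The increases were thus unequal, which ratios within a library show without any scaling. Tpi1 over Gapdh was 0.179 and 0.187 in db_GFP and 0.271 and 0.284 in db_REG3B. Pgk1 over Gapdh was 0.155 and 0.153 against 0.225 and 0.229. Gpi1 over Aldoa moved far less, from 0.189 and 0.192 to 0.184 and 0.187.

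**Figure D2:**
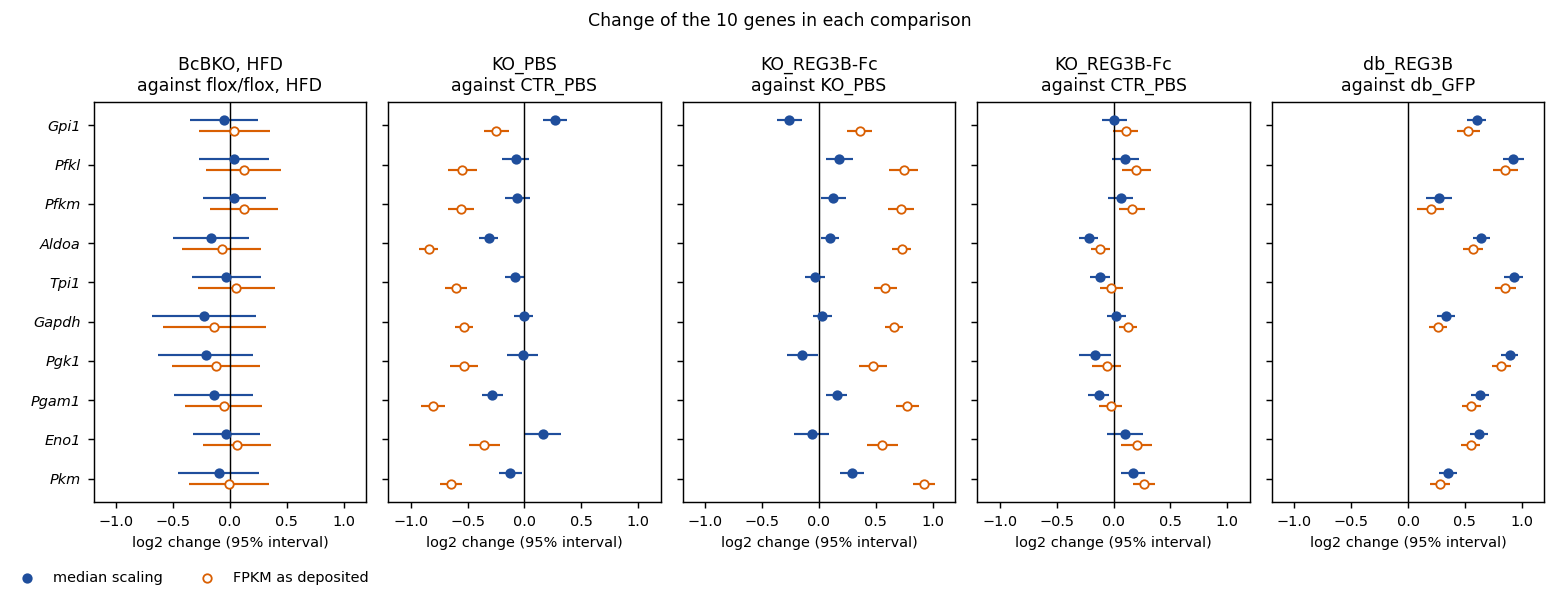
Log2 change of the 10 genes in the 5 comparisons with 95% intervals from limma, after median scaling (filled) and on FPKM as deposited (open). In db_REG3B against db_GFP both sets of points lie above 0 for all 10 genes, while in the KO_PBS comparisons the open points lie apart from the filled ones.

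Other steps of glucose use did not all move with the 10 genes in db islets. The glucose transporters Slc2a2, from 49.1 to 137 FPKM (log2 change 1.54, limma adjusted p = 9.41e-08), and Slc2a1, from 28.0 to 55.7 (1.04, adjusted p = 1.89e-06), were higher. Hexokinase 1 (Hk1) fell from 11.5 to 6.93 FPKM (-0.59, adjusted p = 0.000143). Of 7 genes of glucose entry and phosphorylation tested, 2 were higher and 2 lower after scaling, and 2 higher and 3 lower as deposited. Among 7 tested isoenzymes outside the 10, 3 were higher and 1 lower: platelet-type phosphofructokinase Pfkp (34.7 to 53.2 FPKM, log2 change 0.67), neuron-type enolase Eno2 (65.6 to 107, log2 change 0.77) and muscle-type enolase Eno3 (8.13 to 9.97, log2 change 0.33) rose after scaling, while liver-type pyruvate kinase Pklr (6.98 to 4.49, log2 change -0.47) fell. As deposited, Eno3 was not called (adjusted p = 0.0577), which gave 2 higher and 2 lower.

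A list of genes that regulate fructose bisphosphate levels or take part in glucose production gave 6 higher and 1 lower of 9 tested. Pfkfb2, which makes the phosphofructokinase activator fructose 2,6-bisphosphate, rose from 19.8 to 36.2 FPKM (log2 change 0.91). G6pc2, the islet glucose 6-phosphatase, rose from 716 to 1122 FPKM (0.72). Fbp1, which reverses the phosphofructokinase step, fell from 11.0 to 4.04 FPKM (-1.18).

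Beyond pyruvate, 3 of 14 tested genes were higher and 3 lower, with a median of -0.01. Pyruvate carboxylase (Pcx), which feeds pyruvate to the mitochondrial oxaloacetate pool, rose from 31.0 to 55.6 FPKM (log2 change 0.89), and the pyruvate dehydrogenase kinase Pdk1 rose from 16.6 to 29.4 (0.86). Lactate dehydrogenase A (Ldha) went the other way from the 10 genes, from 105 and 104 to 68.8 and 73.3 FPKM (-0.48, limma adjusted p = 4.12e-05). The NADH shuttles gave 3 higher and 1 lower of 10, with Gpd2, Mdh1 and Mdh2 at log2 changes of 0.30, 0.24 and 0.16. As deposited Mdh2 was not called (adjusted p = 0.165), with 2 higher and 2 lower in the list.

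**Figure D3:**
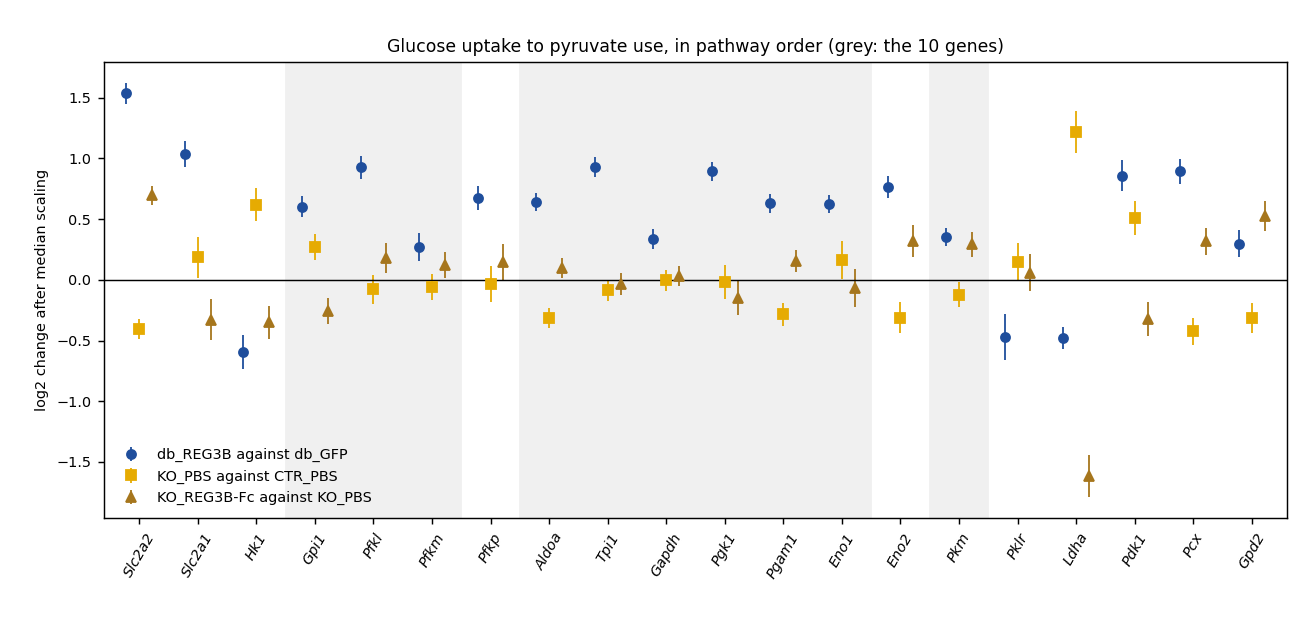
Log2 change after median scaling with 95% intervals for genes from glucose uptake to pyruvate use, in pathway order and with the 10 genes on grey, for 3 comparisons (the other genes shown were picked from the pathway lists after their values were seen). In db_REG3B against db_GFP the grey columns and both transporters lie above 0, and Hk1, Pklr and Ldha lie below.

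Among 14 other textbook HIF targets tested in db islets, 10 were higher and 1 lower, with a median log2 change of 0.29. Over all genes 20.7% were called higher and 25.6% lower. On FPKM as deposited the counts were 7 higher and 4 lower, against 12.2% and 30.8% of all genes. Bnip3, a mitophagy receptor, rose from 97.2 to 223 FPKM (1.26, limma adjusted p = 3.98e-07), and the oxidoreductase Ero1l rose from 40.7 to 70.9 (0.86). Carbonic anhydrase 9 (Car9) fell from 6.65 to 0.925 FPKM (-1.94). Of the HIF subunit genes, 2 fell: Hif1a from 35.8 to 28.7 FPKM (-0.24, adjusted p = 0.00332) and Epas1 from 5.90 to 2.56 (-0.90, adjusted p = 0.000135). Arnt, whose product is the partner of both in the HIF dimer, was at 20.5 and 22.4 FPKM and was called higher after scaling (0.19, limma adjusted p = 0.0163) but not as deposited (0.12, adjusted p = 0.134). The 7 regulator genes tested gave 3 higher and 3 lower after scaling, and 2 higher and 3 lower as deposited. Mlxipl, which encodes the glucose-responsive factor ChREBP, rose from 90.1 to 116 FPKM (0.43), and Txnip, a ChREBP target that restrains glucose uptake, fell from 136 to 80.0 (-0.69).

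Cell-type markers moved in the same comparison. Beta-cell markers were higher for 7 of 8 genes, with summed FPKM of 378635 and 384182 in db_GFP against 697052 and 718130 in db_REG3B as the outer values of each group. Stellate markers (collagens and others) were lower for 7 of 7 genes, their sum falling from 1328 and 1346 to 236 and 250 FPKM, and none was at 0. Endothelial markers were lower for 7 of 7 genes (summed 82.0 to 82.9 against 41.2 to 44.9 FPKM), immune markers for 7 of 8 tested with 1 higher (587 to 592 against 271 to 284), duct markers for 4 of 5 tested (461 to 470 against 331 to 357) and acinar markers for 8 of 10 (878 to 880 against 480 to 499). Markers of the other hormone cells were lower for 6 of 8 genes (95783 to 97151 against 58445 to 59536 FPKM). Of 4 erythroid markers 2 were listed, and their sums were 0.45 FPKM or less. The part of these shifts in the glycolysis result was not tested. With insulin and acinar transcripts left out of the total, the 10 genes took 0.613% and 0.618% of summed FPKM in db_GFP and 0.965% and 0.971% in db_REG3B.

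The islet Reg3b transcript was at 21.8 and 26.5 FPKM in db_GFP and 10.4 and 9.98 in db_REG3B. Since the route of REG3B is not stated, islet Reg3b mRNA does not check the db_REG3B label.

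In the knockout table the counts depended on the scale, and Gpi1 and Eno1 had opposite signs on the 2 scales in this comparison. As deposited, all 10 were lower in the libraries labelled KO_PBS than in CTR_PBS, with a median log2 change of -0.55. The median of all 11789 genes tested was itself -0.44 on that scale, with 81.5% of genes called lower. After median scaling the 10 had a median of -0.07, against -0.002 over all genes, with 1 called higher and 2 lower. The background was 24.6% of genes called higher and 20% lower, so 1 and 2 of 10 are no more than the share among all genes. After scaling, groups did not overlap for 2 members upward and 5 downward, against 36.7% and 36.1% of genes. As deposited 8.66% of genes were called higher. The authors' deposited table called 1 member higher and 3 lower, against 14.7% and 11.2% of its genes.

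Aldoa stood at 245 and 246 FPKM in CTR_PBS and at 135 and 138 in KO_PBS, a log2 change of -0.32 ± 0.04 (SE; limma adjusted p = 0.000167) after scaling and -0.84 as deposited. Pgam1 went from 82.1 and 82.8 to 46.7 and 46.9 FPKM (-0.28 ± 0.04, adjusted p = 0.000641; -0.80 as deposited). Both were lower on both scales. Gpi1 was at 42.4 and 40.4 FPKM against 33.6 and 35.7, higher by 0.27 ± 0.05 after scaling (adjusted p = 0.00210) and lower as deposited (-0.25, adjusted p = 0.000807). Within each library Gpi1 over Aldoa was 0.173 and 0.164 for CTR_PBS against 0.248 and 0.259 for KO_PBS, so the pair shifted against each other whatever the scale.

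The remaining 7 members gave no call after scaling. Eno1 was at 55.8 and 57.2 FPKM against 41.1 and 47.1 (log2 change 0.17, limma adjusted p = 0.0812), higher after scaling and lower as deposited (-0.35). With KO_PBS replicate 1 left out, Eno1 was called higher (0.28, adjusted p = 0.00368). Pkm was at 183 and 182 FPKM against 112 and 120 (-0.12, adjusted p = 0.0561) and was called lower without KO_PBS replicate 2 (-0.18, adjusted p = 0.00978). Gapdh went from 306 and 305 to 209 and 213 FPKM, a change of -0.01 after scaling with a 95% interval of -0.09 to 0.08. Tpi1 (-0.09), Pfkl (-0.08), Pfkm (-0.06) and Pgk1 (-0.02) lay within 0.10 of 0.

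Ldha, which reduces pyruvate to lactate, rose in KO_PBS on both scales, from 9.92 and 8.28 to 15.9 and 15.4 FPKM (log2 change 1.22, limma adjusted p = 5.17e-06). Hexokinase 1 was also higher (1.24 to 1.72 FPKM, 0.62). Slc2a2 fell from 74.7 to 38.9 FPKM (-0.40) and G6pc2 from 2085 to 809 (-0.84). Of the isoenzymes, Eno2 fell from 15.6 to 8.58 FPKM (-0.31, adjusted p = 0.00253). Pdk4, which turns off pyruvate dehydrogenase, rose from 3.19 to 7.52 FPKM (1.48), and Txnip rose from 146 to 363 (1.83). Each of these genes kept its direction and call as deposited. Of the 11 other HIF targets tested, 2 were higher and 3 lower after scaling, against 24.6% and 20% of all genes. As deposited 0 were higher and 9 lower, against 8.66% and 81.5% of all genes.

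In the same libraries acinar markers were higher for 10 of 10 genes, immune markers for 8 of 8 tested, erythroid markers for 4 of 4 and stellate markers for 6 of 7, while beta markers were lower for 6 of 8 (8 of 8 as deposited). Markers of the other hormone cells were higher for 6 of 8 genes after scaling, and higher for 2 and lower for 6 as deposited. Summed acinar FPKM was 207487 to 210062 in CTR_PBS and 384027 to 395980 in KO_PBS, and summed immune FPKM was 124 to 131 against 356 to 361. Insulin took 57.5% and 58.4% of summed FPKM in CTR_PBS against 38.9% and 38.2% in KO_PBS. The part of these shifts in the changes of the 10 genes was not tested.

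REG3B-Fc was compared with PBS in the knockout libraries; this contrast shares the KO_PBS libraries with the one above, so a low or high KO_PBS value enters both with opposite sign. After median scaling 3 members were called higher and 1 lower, with a median log2 change of 0.06 against 0.004 over all genes and a background of 20.2% of genes called higher and 24.7% lower. As deposited all 10 were higher, with a median of 0.69 where the median gene was at 0.53 and 86.2% of genes were called higher and 6.97% lower. After scaling, groups did not overlap for 5 members upward and 2 downward, against 36.3% of genes in each direction. The authors' deposited table called 3 members higher and 1 lower, against 10.2% and 13.9% of its genes.

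Pkm was at 222 and 219 FPKM in KO_REG3B-Fc against 112 and 120 in KO_PBS, a log2 change of 0.29 ± 0.05 (SE; limma adjusted p = 0.00110). Pfkl was at 12.3 and 11.4 against 6.54 and 6.73 FPKM (0.18 ± 0.05, adjusted p = 0.0231), and Pgam1 at 84.1 and 77.9 against 46.7 and 46.9 (0.16 ± 0.04, adjusted p = 0.0140). Pkm kept its call when each library of the table was left out in turn. The Pfkl and Pgam1 calls were lost without KO_PBS replicate 1 and without KO_REG3B-Fc replicate 1, with adjusted p up to 0.126 for Pfkl and 0.0832 for Pgam1. Gpi1, at 45.2 and 44.2 against 33.6 and 35.7 FPKM, was lower after scaling (-0.26 ± 0.05, adjusted p = 0.00247) and higher as deposited (0.36).

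The other 6 members gave no call after scaling: Pfkm 0.13, Aldoa 0.10, Gapdh 0.03, Tpi1 -0.03, Eno1 -0.06 and Pgk1 -0.15 on the log2 scale. As deposited, Tpi1 (0.58), Pgk1 (0.47) and Eno1 (0.56) had the opposite sign and were called higher. With KO_PBS replicate 1 left out, Eno1 was called lower after scaling (-0.18, limma adjusted p = 0.0250). With KO_PBS replicate 2 left out, Aldoa was called higher (0.12, adjusted p = 0.0495). Without KO_REG3B-Fc replicate 2, Pgk1 was called lower (-0.24, limma adjusted p = 0.00716), its FPKM being 49.6 and 55.6 in the 2 KO_REG3B-Fc libraries. Ldha fell from 15.9 and 15.4 to 7.58 and 6.67 FPKM (-1.62, adjusted p = 1.13e-06) and did so on both scales. Slc2a2 (38.9 to 98.5 FPKM, 0.70) and G6pc2 (809 to 1788, 0.51) were higher. Acinar markers were lower for 10 of 10 genes (384027 to 395980 summed FPKM against 175741 to 177603), as were immune markers for 8 of 8 tested (356 to 361 against 139 to 146), erythroid markers for 4 of 4 (542 to 555 against 113 to 131) and stellate markers for 6 of 7 (55.5 to 55.8 against 32.9 to 35.5). Beta markers were higher for 5 of 8 genes after scaling and 8 of 8 as deposited, and markers of the other hormone cells for 7 of 8 and 8 of 8. The part of these shifts in the values of the 10 genes was not tested.

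In KO_REG3B-Fc against CTR_PBS, 1 of the 10 genes was called after scaling. The median log2 change was 0.02, with 0 called higher and 1 lower, against 5.47% and 5.3% of all genes. By unadjusted limma p below 0.05, 1 member was higher and 4 lower, against 12.8% and 12.9% of all genes. After scaling, groups did not overlap for 4 members in each direction, against 28.5% of genes upward and 29.2% downward. As deposited they did not overlap for 6 upward and 2 downward. The share over all genes was not computed on that scale, where the median gene was itself at 0.09. Aldoa was lower, at 229 and 225 FPKM against 245 and 246 (-0.22 ± 0.04, SE; limma adjusted p = 0.00667). This call was lost without CTR_PBS replicate 1 (adjusted p = 0.0539) or replicate 2 (0.0726) and as deposited (-0.12, adjusted p = 0.0542). Pkm was at 222 and 219 FPKM against 183 and 182 (0.17, adjusted p = 0.0517), and was called higher without KO_PBS replicate 1 (0.17, adjusted p = 0.0137) or replicate 2 (0.17, adjusted p = 0.0140), which enter only the shared spread. The other 8 members lay between -0.16 and 0.10, with Pgk1 called lower without KO_REG3B-Fc replicate 2 (-0.26, adjusted p = 0.0274). As deposited, 4 were called higher (Gapdh, Pkm, Eno1 and Pfkl) and 0 lower, against 16.8% and 2.87% of genes. The ratio of Pkm to Aldoa was 0.971 and 0.976 in KO_REG3B-Fc against 0.746 and 0.741 in CTR_PBS, and 0.828 and 0.872 in KO_PBS. Within a library, Pkm was thus highest relative to Aldoa in KO_REG3B-Fc among the groups of that table. Markers of the other hormone cells were higher for 8 of 8 genes in this comparison (10780 to 10875 summed FPKM in CTR_PBS against 23342 to 24055) and stellate markers for 5 of 7 (21.3 to 21.9 against 32.9 to 35.5). Acinar markers were lower for 10 of 10 genes (207487 to 210062 against 175741 to 177603 summed FPKM) and erythroid markers for 4 of 4 (362 to 366 against 113 to 131). Their part in the values of the 10 genes was not tested.

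Under high-fat diet no member differed between the libraries labelled BcBKO and flox/flox. The count was 0 higher and 0 lower by limma, also at an unadjusted p below 0.05 and in the authors' deposited table. The median log2 change was -0.08 after scaling, from -0.23 for Gapdh to 0.04 for Pfkm. As deposited the median was 0.01. Gpi1 (-0.05 after scaling, 0.04 as deposited), Tpi1 (-0.03 and 0.06) and Eno1 (-0.03 and 0.06) changed sign between the scales, without a call on either. Over all 11560 genes 0.00865% were called higher and 0% lower, with 1.72% and 0.83% at an unadjusted p below 0.05. The authors' deposited table called 0.109% of its genes higher and 0.0546% lower. After scaling, the groups did not overlap for Aldoa and Gapdh, both lower, against 13.7% of genes upward and 13.8% downward. As deposited, they did not overlap for Aldoa (lower) and Pfkm (higher). The share over all genes was not computed on that scale, where the median gene was itself at 0.08. Gapdh was at 324 and 408 FPKM in BcBKO against 409 and 391, and Pgk1 at 41.3 and 51.7 against 48.2 and 52.7. On these deposited values both were low in BcBKO replicate 1 only. After scaling, Gapdh in BcBKO replicate 2 (400) was also below both flox/flox libraries (411 and 414). The 95% intervals were wide, running from -0.68 to 0.23 for Gapdh and from -0.24 to 0.32 for Pfkm. Changes of that size were thus not excluded by these 4 libraries in this fit, which does not pair replicates. No cell-type marker was called either.

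Isoenzyme shares within a library do not depend on scaling. Pfkl made up 26.5% to 34.3% of the summed FPKM of Pfkl, Pfkm and Pfkp in the HFD, WT and PBS tables, 39.0% and 40.2% in db_GFP, and 46.9% and 47.7% in db_REG3B. Pfkm was the leading gene elsewhere, at 47.8% to 59.0%, and stood at 30.7% and 31.9% in db_GFP and 23.1% and 24.0% in db_REG3B. Pfkp was at 29.1% to 29.2% in all 4 db libraries. Pkm held 96.3% to 99.4% of the pyruvate kinase genes in every library. Eno1 held 59.0% to 82.3% of the enolase genes.

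The lactate dehydrogenase pair varied most. Of Ldha plus Ldhb, Ldha made up 48.4% and 50.8% among CTR_PBS libraries, 73.0% and 75.1% among KO_PBS and 39.8% and 40.8% among KO_REG3B-Fc. In db islets it was 89.5% and 89.8% with GFP and 84.8% and 86.0% with REG3B. In WT it ran from 36.2% to 75.0%.

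**Figure D4:**
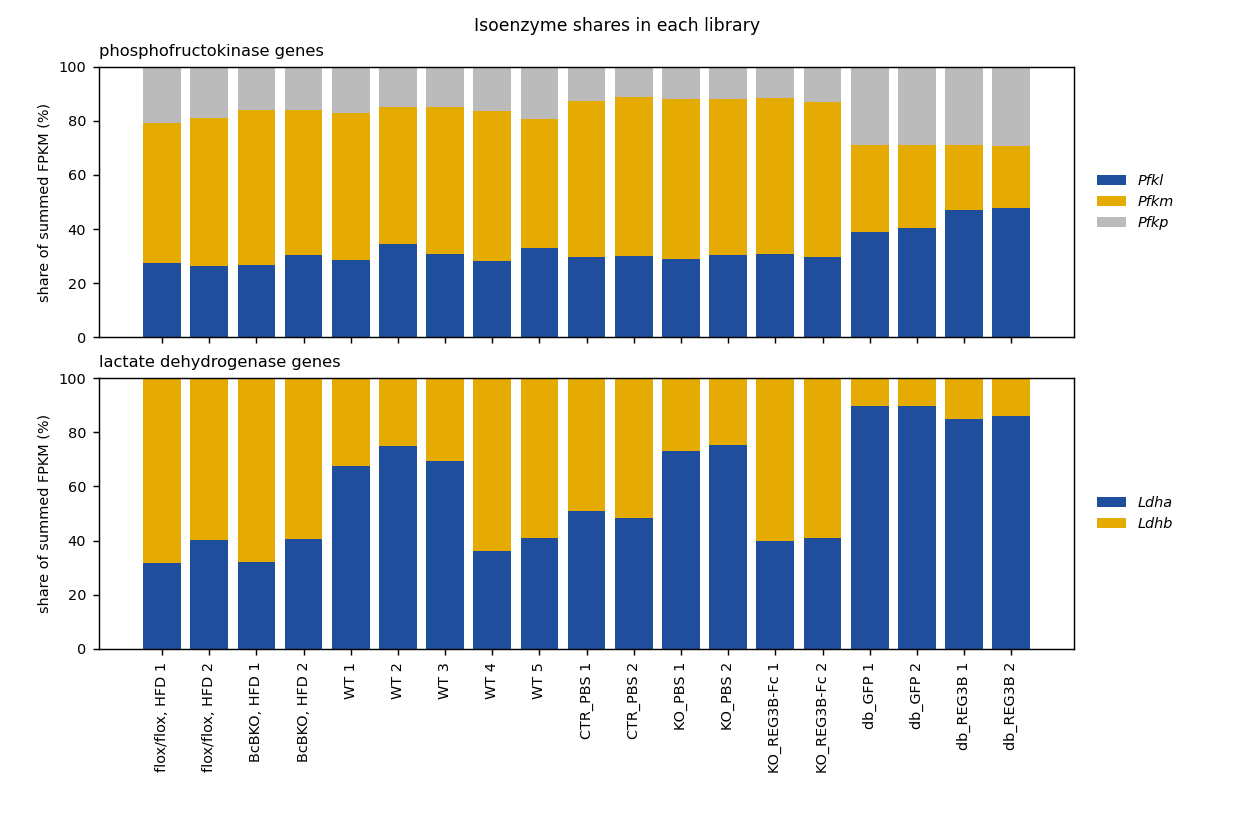
Share of each gene in the summed FPKM of the phosphofructokinase genes (top) and of the lactate dehydrogenase genes (bottom), 1 bar per library. Pfkl is largest in the 4 db libraries, reaching 47.7%, and Ldha is at 73.0% or more in both KO_PBS and all db libraries. WT replicate 2 is also above that share, at 75.0%.

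Across tables the 10 genes summed to 1169 to 1303 FPKM in HFD islets, 1051 and 1052 for CTR_PBS, 671 and 690 for KO_PBS, 1108 and 1114 for KO_REG3B-Fc, 3756 and 3767 in db_GFP and 5122 and 5263 in db_REG3B. The median FPKM of the 12759 genes listed in all tables ran from 3.44 in WT to 11.5 in db_GFP. The sum over that median was 137 to 237 in the 15 libraries outside the db table, 327 and 329 in db_GFP, and 492 and 487 in db_REG3B. The tables were made separately, so these levels are set side by side without a test, and genotype, table and batch cannot be told apart.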

How the data were processed

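mRNA of pooled mouse islets was sequenced as paired ends on the BGISEQ-500, per the labels' protocols. The authors deposited FPKM for 19 libraries and, for the HFD table, TPM. The ratio of TPM to FPKM was nearly constant over the members within a library. Between libraries it differed, from 0.699 in flox/flox replicate 1 to 0.795 in flox/flox replicate 2. TPM was not used further. The authors also deposited log2 fold changes and, beside each, a p-value with its adjusted value; DESeq2 is named for them per the file headers, except in the HFD table, where no tool is named. The genome build was GRCm38.p6 per the submitters' processing notes; the aligner and counting program are not given in the sources used here. Read counts were not analysed here, so depth is unknown and no counting interval was computed. All value columns matched a labelled sample.

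From these FPKM, each library was divided by its median ratio to the geometric-mean library of its table. Genes that reached 1 FPKM in 2 or more libraries were tested with limma 3.58.1 (R 4.3.3) on log2(scaled FPKM + 1), with a variance trend, all groups of a table in one fit, two-sided, Benjamini-Hochberg adjusted over all genes of the table, threshold 0.05. All 10 members passed the filter in each table. The procedure was tested on simulated data with independent noise per gene. No shift of whole libraries was simulated, so the median scaling was not tested by it. Alternatives were other scalings, no filter, a pseudocount of 0.1, the replicate number as a block, fits on 2 groups only, and leaving out each library. Promoters and gene positions came from RefSeq tables of GRCm38.p6, in which all 10 members matched, and copies from GENCODE M21 with BLAST 2.17.0. The members and lists were chosen with earlier results of these data known. Named beside the members were, per pathway list and comparison, up to 3 called genes with the smallest p and at least 5 FPKM in the higher group, together with the other isoenzymes and Ldha. Genes named outside that rule (Hif1a and Arnt in db, Hk1 in the knockout table) were picked after their values were seen; Smarcd3 and Reg3b served as label checks. Some isoenzymes are not reported here.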

Additional observations from a re-analysis of the deposited data

How the results depend on the processing

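In db_REG3B against db_GFP the count was 10 higher and 0 lower under every alternative run, with adjusted p at most 0.0325 for Pfkm and lower for the others when each library was left out. In the HFD comparison it was 0 and 0 under every alternative. The knockout table depended on the scale, where the cause was not tested. In KO_PBS against CTR_PBS the counts were 0 higher and 10 lower both as deposited and with equal sums that leave out insulin and acinar markers, and 0 higher and 8 lower with equal sums over genes of at most 1000 FPKM, an alternative chosen after seeing the data. In KO_REG3B-Fc against KO_PBS they were 10 and 0 on the first pair of scales and 7 and 0 on the third. Against CTR_PBS, 4 were higher and 0 lower as deposited, and 1 was higher under either equal-sum scale and with only the libraries of the comparison in the fit. As deposited, 81.5% of all genes were called lower in KO_PBS against CTR_PBS. In KO_REG3B-Fc, 86.2% were called higher against KO_PBS and 16.8% against CTR_PBS. Shares of all genes under the other alternatives, also the block and the fits without a library, are not given here. The member counts under those alternatives thus have no background beside them.

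Where the main or the alternative value was called, signs turned as follows. The sign changes in the HFD comparison, given above, had no call. In KO_PBS against CTR_PBS, Gpi1 was at -0.25 as deposited and -0.26 with equal sums without insulin and acinar markers, and Eno1 at -0.35 and -0.37. In KO_REG3B-Fc against KO_PBS the same pair of scales gave 0.36 and 0.33 for Gpi1, 0.58 and 0.55 for Tpi1, 0.47 and 0.44 for Pgk1, and 0.56 and 0.53 for Eno1, and Tpi1 was at 0.17 under the third scale.

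Leaving out each library in turn gave 1 to 2 higher and 2 to 3 lower in KO_PBS against CTR_PBS, 1 to 4 higher and 1 to 2 lower in KO_REG3B-Fc against KO_PBS, and 0 to 1 higher and 0 to 2 lower in KO_REG3B-Fc against CTR_PBS. A lone remaining library is then assumed to vary like the other groups.

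The labels tie same-numbered replicates by the number only, with 2 replicates a group, and do not say whether they were handled together. Their deviations correlated at 0.67 in the HFD table, between -0.02 and 0.05 in the PBS table and at -0.05 in the db table. With the replicate number as a block, 2 members were higher in KO_PBS against CTR_PBS and 1 in KO_REG3B-Fc against CTR_PBS. With depth unknown, precision rests on 2 pools a group.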

Other observations

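The genes whose profile was most like the mean of the 10, after centring each table, were Fam162a (Pearson r = 0.98), Slc39a7 (0.98), Vrk1 (0.97), Ero1lb (0.97) and P4ha1 (0.97), over 14 libraries. Of 10719 genes tested in all 3 tables with 2 or more groups, only those with a mean of at least 5 FPKM were ranked. The members and predicted genes were left out of the ranking. P4ha1 encodes a collagen prolyl hydroxylase subunit and was at 39.6 FPKM in db_GFP and 58.6 in db_REG3B (log2 change 0.63). The 14 libraries share tables and groups, and the db contrast is the largest source of spread among them, so the values are a description.

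Each member correlated with the mean of the other 9 at 0.76 (Pfkm) to 0.95 (Pfkl) over the same 14 libraries. Within the 6 libraries of the PBS table alone, the values ran from -0.79 (Gpi1) to 0.60 (Gapdh). In the HFD table alone they ran from -0.91 (Pfkm) to 0.98 (Gapdh), so the 10 did not move as a block in either. In the db table alone they ran from 0.97 (Pfkm) to 1.00 (Aldoa).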
